A study of Homo sapiens with 12 samples.

Results

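The aldo-keto reductases are a family of cytosolic enzymes that reduce aldehydes and ketones to alcohols with NADPH. Their mRNA was followed here in DU145 and 22Rv1, both derived from human prostate cancer, and in a docetaxel-resistant line of each, DU145-DR and 22Rv1-DR. The members were chosen by family, from a list of 9 genes matched by gene symbol, with the rise of AKR1C3 in DU145-DR already known. Of the 9 listed genes, 7 had a probe set under their symbol (AKR1B10, AKR1C1, AKR1C2, AKR1C3, AKR1C4, AKR7A2 and AKR7A3), and the other 2 are not analysed here. Together they had 12 of the 22215 probe sets of the smaller array type and 15 of the 54613 of the larger one.

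Docetaxel is a taxane that stabilises microtubules and is used in advanced prostate cancer. The parental DU145 and 22Rv1 cells were kept in RPMI medium with fetal bovine serum and no drug, and DU145-DR and 22Rv1-DR were kept in the same medium with docetaxel, so resistance and exposure to the drug were joined in each comparison. No dose, exposure time, or number of separate resistant clones is stated, and both parental lines are established cell lines. Each of the 4 groups had 3 arrays: replicates 1 and 2 on the smaller array type (8 arrays) and replicate 3 on the larger one (4 arrays). Nothing in the labels says that replicates were separate cultures, so every standard error and p-value below measures the spread between arrays, which may be technical, and the number of arrays limits the precision.

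AKR1C1, AKR1C2 and AKR1C3 are hydroxysteroid dehydrogenases. AKR1C1 inactivates progesterone, AKR1C2 inactivates dihydrotestosterone, and AKR1C3 makes testosterone from androstenedione and prostaglandin F from prostaglandin D or H. AKR1C4 is their liver counterpart, AKR1B10 reduces retinal and other aldehydes, and AKR7A2 and AKR7A3 reduce dialdehydes, among them those formed from aflatoxin. Several AKR1C genes and AKR1B10 are known targets of NRF2, the transcription factor of the oxidative and electrophile stress response.

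Values are probe-set intensity, an array brightness on a linear scale, as deposited. Changes are resistant minus parental on the scale of log2(intensity + 16), which understates the change of dim genes. Each is given with the limma standard error, for 2 arrays per group. The spread behind it is 1 estimate per probe set, pooled over the 4 groups and drawn toward that of all probe sets. A probe set therefore has the same standard error in both lines, which is not the spread within 1 line. The third pair is the same difference between the 2 replicate 3 arrays of a line, with no test. In the 8-array table the 5th percentile of intensity was 35.8 to 38.6 on the DU145 and DU145-DR arrays and 11.5 to 12.3 on the 22Rv1 and 22Rv1-DR arrays, so levels cannot be set against each other between the lines there, nor between the 2 tables. The percentile of a probe set among the 22215 shared probe sets of its own array is therefore given as well. Arrays of whole cultures cannot tell fewer cells with an mRNA from less of it per cell.

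In DU145-DR, 4 genes of the family stood above DU145 on replicates 1 and 2: AKR1C3 by 16.5-fold, AKR1C1 by up to 13.2-fold, AKR1C2 by up to 13.1-fold and AKR1B10 by 2.63-fold. The AKR1C1 and AKR1C2 figures are from probe sets marked by their names as prone to cross-hybridization. AKR1C1 217626_at, not so marked, gave 1.23-fold. The third pair gave a far smaller difference for AKR1C3, AKR1C2 and the AKR1C1 probe sets so marked, and the opposite one for AKR1B10. In 22Rv1-DR, AKR1C3 stood 2.36-fold below 22Rv1 on replicates 1 and 2, and the replicate 3 pair gave only -0.11 log2 units. With all 12 arrays this AKR1C3 difference did not pass limma at an adjusted p under 0.05. AKR1C1 and AKR1C2 stood above 22Rv1 on all 3 pairs by some of their probe sets. Those were all prone to cross-hybridization by name, and none passed in the 8-array fit. AKR1C1 217626_at changed by 0.01 there. AKR1B10, AKR1C4, AKR7A2 and AKR7A3 had changes between -0.21 and 0.18 in 22Rv1-DR. AKR7A2 and AKR7A3 were lower in DU145-DR on all 3 pairs by less than 1 log2 unit, as by direction were 28% of all probe sets tested.

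**Figure D1:**
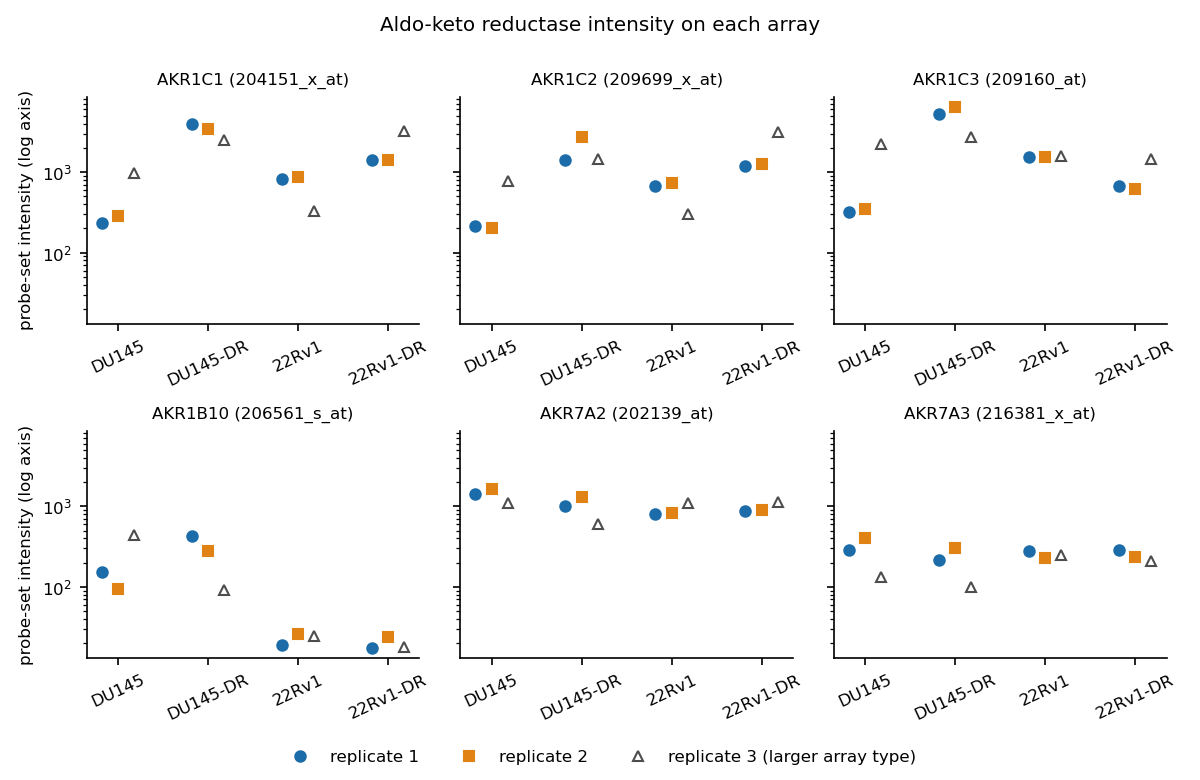
Probe-set intensity of 6 aldo-keto reductases on each of the 12 arrays (y axis, log scale), by group (x axis); filled symbols are replicates 1 and 2 and open triangles replicate 3 on the larger array type, whose levels are on another scale. AKR1C3 sat at 317 and 347 in DU145 and at 5185 and 6339 in DU145-DR on replicates 1 and 2, while the 2 replicate 3 arrays, at 2226 and 2759, lay close together.

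AKR1C3 was measured by 1 probe set, 209160_at. Its intensity was 317 and 347 on the DU145 arrays of replicates 1 and 2 and 5185 and 6339 on those of DU145-DR, and on replicate 3 it was 2226 in DU145 and 2759 in DU145-DR. The resistant arrays were high throughout, and the parental arrays were low on replicates 1 and 2 but not on replicate 3. In ranks, AKR1C3 lay at percentiles 59.0, 59.8 and 94.3 of the DU145 arrays and 96.7, 96.3 and 95.3 of the DU145-DR arrays, in the order of the replicate numbers. The change was 4.05 ± 0.19 (SE, n = 2 arrays per group), and the third pair gave 0.31.

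In 22Rv1, AKR1C3 intensity was 1531 and 1552 on replicates 1 and 2 and 1563 on replicate 3. In 22Rv1-DR it was 671 and 617 on replicates 1 and 2 and 1448 on replicate 3. The groups did not overlap on the 8-array table, and the 2 replicate 3 arrays were close to each other. The share of all probe sets whose groups did not overlap was not counted, here or below. The change was -1.24 ± 0.19 (SE, n = 2 arrays per group) and the third pair gave -0.11. AKR1C3 thus lay on opposite sides of its parental level in the 2 resistant lines on each of the 3 pairs, and the difference between the lines was not tested.

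AKR1C1 had 3 probe sets on both array types, and they did not read alike. Of these, 204151_x_at and 216594_x_at are marked by their names as prone to cross-hybridization, and 217626_at is not. The brightest, 204151_x_at, had an intensity of 234 and 288 in DU145 and of 3902 and 3373 in DU145-DR on replicates 1 and 2, and of 969 and 2521 on replicate 3. The resistant arrays were above the parental ones within each table, and parental replicate 3 ranked far higher than the other two, at percentile 86.6 of its array against 52.9 and 56.7. The change was 3.72 ± 0.19 and the third pair gave 1.37. The second probe set, 216594_x_at, had a change of 3.30 ± 0.21 with 0.96 on the third pair. The third, 217626_at, went from 191 and 144 in DU145 to 220 and 197 in DU145-DR, a change of 0.30 ± 0.20, with 1.14 on the third pair (58.9 and 149). On this probe set parental replicate 3 did not rank above the other parental arrays, at percentile 43.0 against 48.5 and 45.3.

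AKR1C1 on 204151_x_at was also higher in 22Rv1-DR than in 22Rv1. Its intensity was 815 and 867 in 22Rv1 and 1418 and 1409 in 22Rv1-DR on replicates 1 and 2, and 326 and 3191 on replicate 3. The parental array of replicate 3 stood apart, at percentile 70.3 against 87.9 and 88.7, while the 3 resistant arrays lay at 92.7, 92.9 and 95.9. The change was 0.74 ± 0.19 and the third pair gave 3.23. For 216594_x_at the change was 0.36 ± 0.21 and the third pair 1.88, and for 217626_at they were 0.01 ± 0.20 and 0.39.

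AKR1C2 had 2 probe sets on both array types, each marked by its name as prone to cross-hybridization. On 209699_x_at the intensity was 214 and 201 in DU145 and 1428 and 2740 in DU145-DR on replicates 1 and 2, and 781 and 1438 on replicate 3. Both DU145-DR arrays of the 8-array table were above both DU145 arrays, although they differed from each other more than those of AKR1C3 did. The change was 3.16 ± 0.29, with 0.87 on the third pair, and 211653_x_at gave 3.71 ± 0.26, with 0.56. In 22Rv1 the intensity of 209699_x_at was 680 and 734, and 1176 and 1269 in 22Rv1-DR, with 304 and 3148 on replicate 3. The change there was 0.78 ± 0.29 and the third pair 3.30, whereas 211653_x_at gave 0.01 ± 0.26 and 1.54.

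AKR1C1 and AKR1C2 are close copies of each other, so the split of signal between them is uncertain. Their 4 x_at probe sets gave differences of 2.65 to 3.97 on DU145 pairs 1 and 2, and of 0.56 to 1.37 on the third. Set against 204151_x_at of AKR1C1, the AKR1C3 change was apart by -0.01, 0.65 and -1.06 log2 units on DU145 pairs 1, 2 and 3. In 22Rv1 the same gaps were -1.96, -1.998 and -3.34. The 3 genes therefore shared a direction in DU145-DR and did not in 22Rv1-DR. Of the 3 probe sets found on the larger array alone, AKR1C1 1555855_at read 22.6 to 30.1, AKR1C1 1555856_s_at 37.0 to 64 and AKR1C2 244266_at 14.4 to 16.6 over the 4 arrays, whose medians were 37.5 to 39.7. The first and the last were below the median on all 4, and 1555856_s_at was above it on all but the DU145 array.

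**Figure D2:**
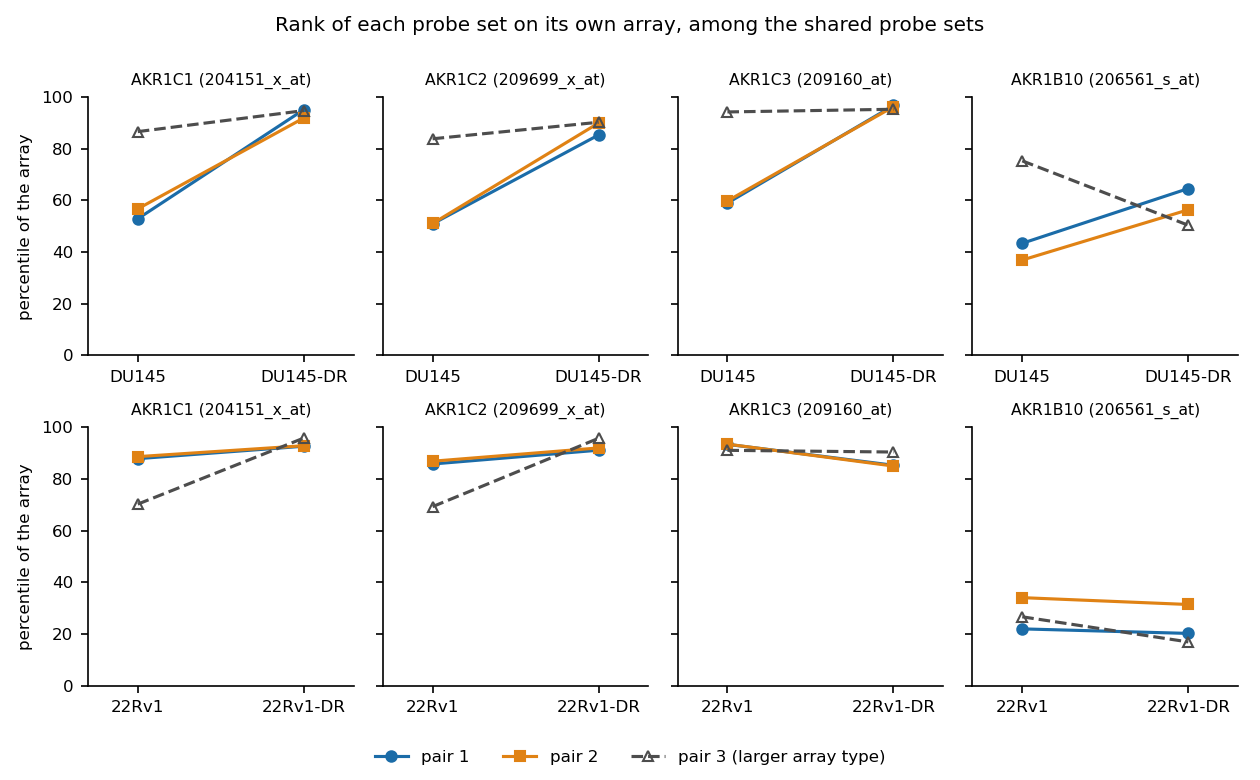
Percentile of AKR1C1, AKR1C2, AKR1C3 and AKR1B10 probe sets among the shared probe sets of the same array (y axis, 0 to 100) in parental and resistant cells (x axis) for DU145 (upper row) and 22Rv1 (lower row); lines join the arrays of 1 replicate number and the dashed line is replicate 3. For the plotted AKR1C probe sets in DU145 the 3 resistant arrays lie at percentiles 85.4 to 96.7 and the parental array of replicate 3 lies above the other parental arrays, at 94.3 for AKR1C3 against 59.0 and 59.8.

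The promoters of the AKR1C genes that stood higher together in DU145-DR are shown first, followed by that of AKR7A2, which was lower there. These are RefSeq sequences of GRCh38.p14, from 250 bases before to 50 bases after the annotated start, 5′ to 3′ on the strand of the gene; 6 of the 7 genes matched, with 8 entries. They are AKR1C1 (chr10:4963165-4963464, plus strand), AKR1C2 (chr10:5003808-5004107, minus strand), the first of 2 entries of AKR1C3 (chr10:5048531-5048830, plus strand) and the first of 2 of AKR7A2 (chr1:19312095-19312394, minus strand). Capitals mark letters of a motif searched on both strands.
AKR1C1: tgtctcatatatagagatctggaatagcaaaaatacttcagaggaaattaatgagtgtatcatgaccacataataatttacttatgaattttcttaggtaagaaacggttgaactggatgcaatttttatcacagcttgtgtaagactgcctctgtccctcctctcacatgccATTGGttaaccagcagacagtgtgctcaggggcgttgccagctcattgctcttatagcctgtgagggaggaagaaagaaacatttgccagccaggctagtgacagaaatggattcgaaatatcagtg
AKR1C2: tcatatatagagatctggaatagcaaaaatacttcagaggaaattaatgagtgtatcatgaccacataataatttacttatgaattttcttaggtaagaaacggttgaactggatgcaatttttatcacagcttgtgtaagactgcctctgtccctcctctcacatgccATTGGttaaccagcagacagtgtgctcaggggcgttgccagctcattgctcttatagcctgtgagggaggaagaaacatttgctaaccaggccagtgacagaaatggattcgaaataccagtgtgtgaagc
AKR1C3: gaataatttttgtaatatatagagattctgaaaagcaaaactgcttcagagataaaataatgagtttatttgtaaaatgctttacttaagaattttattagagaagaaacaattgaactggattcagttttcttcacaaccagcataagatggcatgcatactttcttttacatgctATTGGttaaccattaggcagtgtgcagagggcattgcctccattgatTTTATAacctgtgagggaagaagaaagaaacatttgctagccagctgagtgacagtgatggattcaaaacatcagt
AKR7A2: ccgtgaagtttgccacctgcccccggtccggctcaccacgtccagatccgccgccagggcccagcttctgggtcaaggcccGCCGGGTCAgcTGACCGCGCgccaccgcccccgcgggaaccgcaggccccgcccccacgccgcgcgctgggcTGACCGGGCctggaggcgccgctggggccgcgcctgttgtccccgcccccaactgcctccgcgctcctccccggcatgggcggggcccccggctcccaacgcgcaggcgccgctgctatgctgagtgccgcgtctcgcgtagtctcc

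AKR1C1 and AKR1C2 were nearly the same sequence there, with 93.5% of aligned positions identical. The first AKR1C3 entry shared 73.5% with AKR1C1 and 69.4% with AKR1C2, and the second, not shown, shared 71.0% and 70.1%. All 3 genes held ATTGG, the reverse of the CCAAT box, at bases -77 to -73 (AKR1C1), -81 to -77 (AKR1C2) and -73 to -69 (first AKR1C3 entry) counted from the start. The second AKR1C3 entry held it at -86 to -82. CCAAT was present on either strand in 34.6% of the 35116 RefSeq promoters of the same length. Of the windows shown for these 3 genes, that of AKR1C3 alone had a TATAAA, on the reverse strand at -26 to -21, a motif in 11.5% of promoters. The second AKR1C3 entry did not have it. TGACNNNGC, the core of the antioxidant response element that NRF2 binds, was in 13.3% of promoters: it was not in the windows of AKR1C1, AKR1C2, AKR1C3, AKR1C4 or AKR7A3, and AKR7A2 held it 3 times (-169 to -161 on the reverse strand, -158 to -150, and -97 to -89). TGACTCA, the AP-1 site, which can overlap that core, was in 4.95% of promoters and in none of these windows. A match is a description of letters and not of binding, and the 250 bases leave out any element further away. In the gene order of the same annotation AKR1C1, AKR1C2 and AKR1C3 are neighbours on chromosome 10, and AKR1C8 lies between AKR1C3 and AKR1C4.

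AKR1C4, the liver enzyme of the cluster, was dim and was the 1 member probe set of 12 that did not pass the filter on low values. Its intensity was 95.7 and 41.9 in DU145 and 95.7 and 48.2 in DU145-DR, and 17.5 and 15 on replicate 3. In 22Rv1 and 22Rv1-DR it was 14.8 and 10.7 in both groups, and 15.2 and 18.1 on replicate 3. The groups overlapped in both lines, and the changes were 0.07 ± 0.36 and 0.00 ± 0.36. Both standard errors are from a fit without the filter, with the spread pooled over all groups. On no array did AKR1C4 lie above percentile 33.0.

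AKR1B10 had 1 probe set, 206561_s_at. Its intensity was 152 and 94.4 in DU145 and 422 and 278 in DU145-DR on replicates 1 and 2, and on replicate 3 it was 440 in DU145 and 90.5 in DU145-DR. The first 2 pairs were thus higher in the resistant cells by 1.38 and 1.41, and the third was lower by 2.10 log2 units. Ranks showed the same turn, from percentiles 43.4, 36.9 and 75.3 in DU145 to 64.6, 56.4 and 50.4 in DU145-DR. The change over replicates 1 and 2 was 1.40 ± 0.28. In 22Rv1 and 22Rv1-DR the intensity lay between 17.6 and 26.2 on all 6 arrays, the groups overlapped on the 8-array table, and the change was -0.07 ± 0.28.

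AKR7A2, a succinic semialdehyde and aflatoxin dialdehyde reductase, had 2 probe sets. On 202139_at its intensity was 1409 and 1618 in DU145, 996 and 1287 in DU145-DR, and 1097 and 600 on replicate 3. The resistant arrays were below the parental ones without overlap on the 8-array table, which was not counted over all probe sets. The change was -0.41 ± 0.20 and the third pair gave -0.85. The second probe set, 214259_s_at, changed by -0.40 ± 0.25 with overlapping groups and -0.28 on the third pair. In 22Rv1-DR the same probe sets gave 0.13 ± 0.20 and 0.18 ± 0.25, with 0.05 and 0.22 on the third pair. Both therefore lay below the parental line in DU145-DR and above it in 22Rv1-DR on every pair, and the difference between the lines was not tested.

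AKR7A3, the neighbour of AKR7A2 on chromosome 1, had 2 probe sets of the kind prone to cross-hybridization. On 206469_x_at the intensity was 242 and 324 in DU145, 167 and 237 in DU145-DR, and 124.5 and 84.4 on replicate 3. The change was -0.46 ± 0.31, with -0.48 on the third pair, and 216381_x_at gave -0.38 ± 0.25 and -0.36. In 22Rv1 the changes were -0.21 ± 0.31 and 0.03 ± 0.25, with -0.52 and -0.21 on the third pair. The DU145 groups did not overlap on 206469_x_at and did on 216381_x_at, and in 22Rv1 the groups overlapped on both.

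Counted over the family, 11 of the 12 member probe sets passed the filter. In DU145-DR, 6 of the 11 were called higher by limma (p under 0.05 after Benjamini-Hochberg adjustment across the 14813 probe sets tested): 2 of AKR1C1, 2 of AKR1C2, AKR1C3 and AKR1B10. Over all probe sets tested 4.52% were called higher. None was called lower, against 4.47% of all probe sets. At an unadjusted p under 0.05 limma had 6 higher, against 11.6% of all probe sets, and 0 lower, against 10.7%. Since the family was taken up because of this contrast, the count is a description and supports nothing. AKR1B10 lost its call without DU145 replicate 2 (5 member probe sets called) and without DU145-DR replicate 1 (5 called).

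In 22Rv1-DR, 1 of the 11 was called lower (AKR1C3), against 1.88% of all probe sets, and 0 were called higher, against 2.19%. This count too is only a description, as the members were chosen with earlier results of these data known. AKR1B10 206561_s_at and AKR1C1 217626_at were among the 11 through their DU145 levels alone. On the 22Rv1 and 22Rv1-DR arrays of the fit they lay under the filter intensity of 74.0, at 17.6 to 26.2 and 38.3 to 40.8. The same filter was used for all probe sets. At an unadjusted p under 0.05 limma had 2 higher (AKR1C1 204151_x_at and AKR1C2 209699_x_at), against 8.36% of all probe sets, and 1 lower, against 6.29%. With the 4 arrays of the line alone, AKR1C1 and AKR1C2 were called higher (2 called) and AKR1C3 lower. The AKR1C3 call was lost (0 called) when either 22Rv1 array or either 22Rv1-DR array was left out, while its change stayed between -1.30 and -0.86 over 18 alternatives. Without DU145-DR replicate 1 or without DU145-DR replicate 2, AKR1C2 was called higher (1 called), since all groups share 1 estimate of the spread.

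By direction alone, 6 of the 12 member probe sets were higher in DU145-DR on all 3 pairs, against 28.4% of all probe sets tested, and 4 were lower on all 3, against 28% of them. The 6 were the AKR1C1, AKR1C2 and AKR1C3 probe sets, and the 4 those of AKR7A2 and AKR7A3. In 22Rv1-DR, 5 were higher on all 3 pairs, against 26.6%, and 3 were lower, against 21.8%. The 5 were 2 AKR1C1, 1 AKR1C2 and both AKR7A2 probe sets, and the 3 those of AKR1C3 and AKR1B10 and 1 of AKR7A3. The median change over the 11 tested was 1.40 in DU145-DR, with 0.31 on the third pair, beside -0.01 and 0.00 over all probe sets tested. In 22Rv1-DR the medians were 0.03 and 0.22, beside 0.01 and 0.04.

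**Figure D3:**
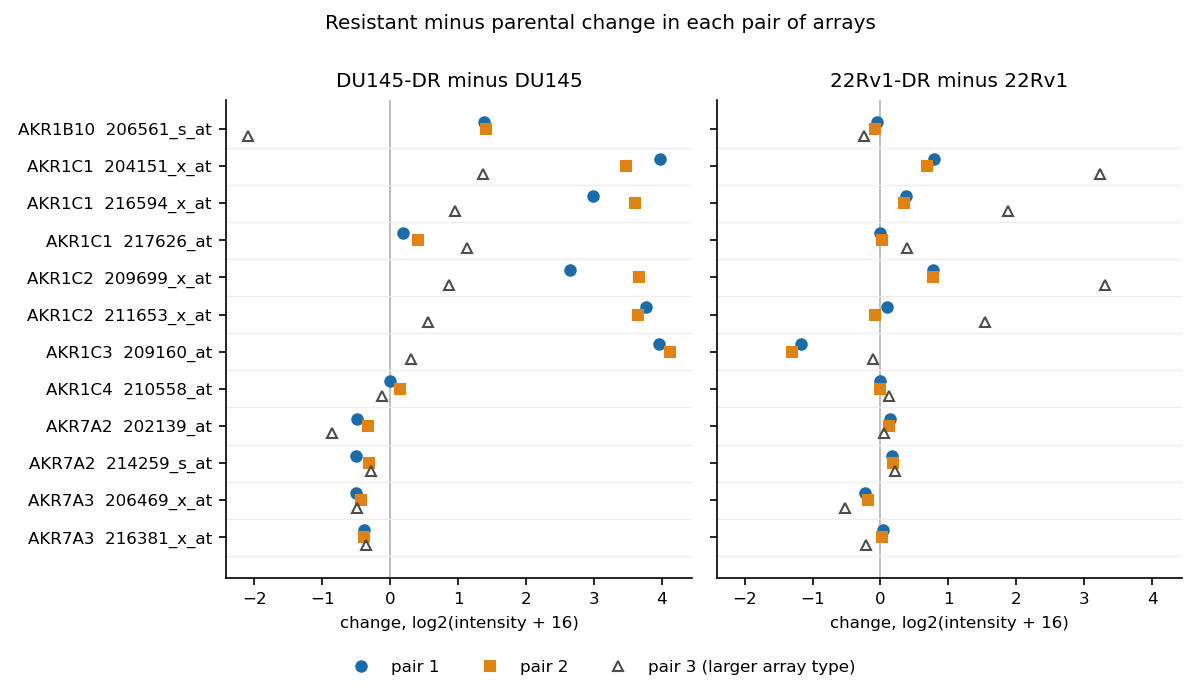
Resistant minus parental difference of each member probe set in each pair of arrays (x axis, log2 of intensity + 16) for DU145 (left) and 22Rv1 (right); circles and squares are pairs 1 and 2 and open triangles pair 3 on the larger array type. In DU145-DR the AKR1C1, AKR1C2 and AKR1C3 points of pairs 1 and 2 lie far to the right of pair 3 except for AKR1C1 217626_at, AKR1B10 changes side on pair 3, and AKR1C3 alone among the AKR1C genes lies left of 0 on all 3 pairs of 22Rv1-DR.

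All 5 epithelial markers measured were above the array median in both parental lines, 3 to 4 of 5 in DU145-DR and 4 to 5 in 22Rv1-DR. CDH1, the cell adhesion protein E-cadherin, read 2369, 3641 and 3281 in DU145 and 38.6, 40.2 and 7.46 in DU145-DR, at or under percentile 8.65 of those arrays, so this defining marker was near the floor in DU145-DR. CDH1 was also lower in 22Rv1-DR, at 269, 284 and 425 against 2937, 3126 and 3929 in 22Rv1, but stayed at percentiles 70.8 to 74.4 there. KRT19, a keratin, read 3641, 3444 and 5257 in DU145 and 181, 365 and 97.0 in DU145-DR, and 1252, 1758 and 1641 in 22Rv1 and 84.4, 94.4 and 59.3 in 22Rv1-DR. The epithelial markers' summed intensity was 19794 and 23631 in DU145 (25101 on replicate 3) and 8563 and 8901 in DU145-DR (10161 on replicate 3), and 13568 and 14448 in 22Rv1 (18395 on replicate 3) and 8183 and 8330 in 22Rv1-DR (13040 on replicate 3). Of 4 androgen-responsive genes, 0 were above the median in DU145 and DU145-DR, 1 to 4 in 22Rv1 and 2 to 3 in 22Rv1-DR. Of 3 leukocyte markers 0, of 3 endothelial markers at most 1 and of 5 fibroblast markers at most 2 were above the median on any array. Hepatocyte markers (4 measured) summed to 119 and 127 in 22Rv1 (464 on replicate 3) and 386 and 520 in 22Rv1-DR (686 on replicate 3), led by TTR, while ALB stayed at 11.7 to 13.0 on replicates 1 and 2. They summed to 344 and 390 in DU145 and to 346 and 359 in DU145-DR. The part of these shifts in the family's changes was not tested.

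The genes outside the family whose pattern was most like that of AKR1C3 were SDC2, NID2, SCG5, NEFL and TMEM45A. Likeness was the root mean square distance over 4 differences, pairs 1 and 2 of both lines, among 9434 genes. SDC2, a cell surface proteoglycan, was nearest at 0.41, with differences of 3.78 and 4.86 in DU145-DR and of -0.93 and -1.07 in 22Rv1-DR. TMEM45A, at 1.01, was also lower in 22Rv1-DR (-1.72 and -1.95), and NID2, SCG5 and NEFL lay near 0 there. On the third pair, which was not used to find them, these 5 genes stood 2.34 to 4.68 above DU145, and AKR1C3 0.31.

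**Figure D4:**
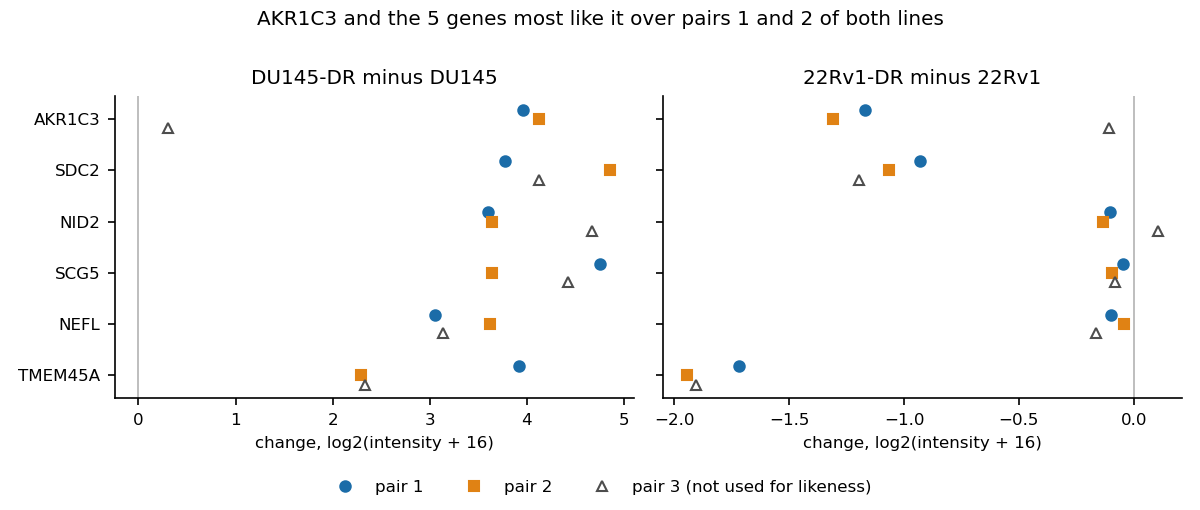
Resistant minus parental difference of AKR1C3 and of the 5 genes most like it (x axis, log2 of intensity + 16) in DU145 (left) and 22Rv1 (right); circles and squares are the pairs used to measure likeness and open triangles pair 3, which was not used. In DU145-DR the pair 3 difference of the 5 genes runs from 2.34 to 4.68, and that of AKR1C3 is 0.31.

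Lists of genes that work beside the family were read from the same limma fit, with p-values adjusted over all 14813 probe sets. A gene could be tested in 22Rv1 through its DU145 level alone, so some that did not pass there were near the floor. ALDH1A3, for example, read 12.2 to 20.5 on the 22Rv1 and 22Rv1-DR arrays of the fit. Of 21 NRF2 targets outside the family, 3 rose and 1 fell in DU145-DR (1 to 2 and 0 to 2 with any 1 array left out), with a median change of 0.04, and 1 rose and 1 fell in 22Rv1-DR (0 to 4 and 1). SLC7A11, the cystine importer, rose in DU145-DR by 1.36 ± 0.19 (limma adjusted p = 0.00427), with 2.28 on the third pair, and its 3 probe sets gave 0.74 to 1.53. NQO1, a quinone reductase, fell by 2.45 ± 0.32 on the log2 scale in 22Rv1-DR (limma adjusted p = 0.00359), with -0.94 on the third pair, and its 3 probe sets gave -2.79 to -2.06. Among 9 regulators of NRF2, SQSTM1, a cargo receptor of autophagy, rose in DU145-DR by 1.61 ± 0.19 (limma adjusted p = 0.00167), with 0.92 on the third pair, and its other probe set gave 0.65. NQO1 and SQSTM1 were read by probe sets marked by their names as prone to cross-hybridization. None of the 9 passed in 22Rv1-DR, where limma had 2 at an unadjusted p under 0.05 and MAFF had the largest change (1.01 ± 0.28, limma adjusted p = 0.0977).

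Of 13 other genes of androgen and steroid metabolism tested, 0 passed in either line by limma, with 1 and 2 at an unadjusted p under 0.05. The largest changes were those of HSD17B10 in DU145-DR (0.64 ± 0.20, limma adjusted p = 0.0869) and of HSD17B6 in 22Rv1-DR (-0.64 ± 0.26, limma adjusted p = 0.291). On the third pair they were 0.48 and -2.48. HSD17B6 was dim, at 47.2 and 46.5 in 22Rv1 and 24.8 and 23.8 in 22Rv1-DR, where the scale understates a change. With the 4 arrays of the line alone its limma adjusted p was 0.0319. Of 13 genes of prostaglandin synthesis and signalling, 3 fell and 0 rose in DU145-DR (0 to 4 and 0 to 1 with any 1 array left out), and 1 rose and 2 fell in 22Rv1-DR (1 and 1 to 2). HPGD, the enzyme that inactivates prostaglandins, in 22Rv1-DR fell by 2.33 ± 0.20 on the log2 scale (limma adjusted p = 0.000365), with -1.15 on the third pair, and its 4 probe sets gave -2.49 to -2.18. ABCC4, a prostaglandin and drug exporter, rose there by 2.07 ± 0.21 (limma adjusted p = 0.000885), with 2.09 on the third pair. In DU145-DR ABCC4 had a change of -1.07 ± 0.21 (limma adjusted p = 0.0164; 0.0907 without DU145 replicate 2), with -1.25 on the third pair.

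Among enzymes that oxidise aldehydes or alcohols, 4 of 17 aldehyde and alcohol dehydrogenases fell and 1 rose in DU145-DR (1 to 5 and 0 to 1 with any 1 array left out). None passed in 22Rv1-DR by limma, with 1 at an unadjusted p under 0.05 and the largest change in ALDH4A1 (-0.84 ± 0.28, limma adjusted p = 0.181). ALDH1A3, which makes retinoic acid from retinal, in DU145-DR fell by 2.50 ± 0.24 on the log2 scale (limma adjusted p = 0.000718), with -2.69 on the third pair. Of 10 genes of retinoid metabolism 1 rose and 2 fell in DU145-DR (0 to 1 and 1 to 2) and 1 rose in 22Rv1-DR (1 to 2), where CRABP2, a retinoic acid binding protein, changed by 2.15 ± 0.26 (limma adjusted p = 0.00241), with 0.51 on the third pair. CYP26A1, which breaks down retinoic acid, had a change of -1.64 ± 0.21 in DU145-DR (limma adjusted p = 0.00253), with -0.34 on the third pair. Of 14 carbonyl and short-chain reductases 0 rose and 2 fell in DU145-DR (0 to 2 and 0 to 3 with any 1 array left out), and 1 rose and 1 fell in 22Rv1-DR (1 and 0 to 1). DHRS3, a retinal reductase, rose in 22Rv1-DR by 1.72 ± 0.20 (limma adjusted p = 0.00186), with 0.39 on the third pair. Of 6 polyol pathway and osmotic response genes 0 passed in either line by limma, with 2 at an unadjusted p under 0.05 in each. Their largest changes were those of HSPA4L in DU145-DR (-0.71 ± 0.29, limma adjusted p = 0.189) and NFAT5 in 22Rv1-DR (1.26 ± 0.35, limma adjusted p = 0.100).

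Of 19 genes tested around the AKR1C cluster on chromosome 10, 2 rose and 1 fell in DU145-DR (0 to 2 and 0 to 1 with any 1 array left out), with a median of 0.25 and of 0.53 on the third pair. In 22Rv1-DR 0 rose and 1 fell (0 and 0 to 2), with a median of -0.03. Of 5 genes around AKR1B10 0 passed in either line by limma, with 2 in DU145 and 0 in 22Rv1 at an unadjusted p under 0.05. Their largest changes were those of NUP205 in DU145-DR (-0.86 ± 0.32, limma adjusted p = 0.154) and CNOT4 in 22Rv1-DR (0.46 ± 0.26, limma adjusted p = 0.521). Of 12 around AKR7A2, AKR7A3 and AKR1A1, a listed gene not analysed here, 0 passed in DU145-DR by limma, with 1 at an unadjusted p under 0.05. NASP had the largest change there (0.65 ± 0.23, limma adjusted p = 0.129), and 1 gene fell in 22Rv1-DR (0 to 1). The list joins the neighbours of all these genes, and which of them NASP lies beside was not looked up. Of the family's other branches, AKR1D1, a liver steroid reductase, stayed at 9.71 to 46.9 on all 12 arrays, and KCNAB2, a potassium channel subunit with the same fold, did not pass (-0.16 and 0.52, limma adjusted p = 0.850 and 0.359).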

How the data were processed

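Gene expression was measured in total RNA of 12 samples on Affymetrix arrays. The authors deposited probe-set intensity on a linear scale, 7.52 to 31216 in the 8-array table and 6.73 to 30786 in the 4-array table. The submitters' processing notes list MAS5 and RMA; their roles, order and background correction: not given in the sources used here. Array medians were 59.3 to 205 on the 8 arrays and 37.5 to 39.7 on the 4.

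The supplied annotation gave 1 gene symbol to 19064 and 41091 probe sets, which were used; 1043 and 1801 had more than 1 symbol, 2108 and 11721 had none, and 31 and 59 of Y-linked or X-inactivation genes were dropped. Values were log2(intensity + 16). A probe set was tested (14813 were) if at least 1 group mean exceeded the 40th percentile, an intensity of 74.0 (6.49 as log2). limma 3.58.1 (R 4.3.3) fitted the 8 arrays together, with a term per group and no block (4 residual and 4.38 prior degrees of freedom), and p-values were two-sided and Benjamini-Hochberg adjusted at 0.05. The script was checked on simulated data.

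The members and lists were chosen with earlier results of these data known, so members are given no p. All member probe sets are named, and so are the 5 genes nearest to the lead member. Of each list, up to 4 genes past the threshold with the largest change were taken, or the largest where none passed. Of those past it, the text keeps those whose call held with any 1 array left out (and ABCC4 in DU145 and NASP in 22Rv1). A gene was read by its brightest probe set not prone to cross-hybridization by its name. Where it had only prone ones, as HPGD, NQO1, SQSTM1 and NFAT5 did, the brightest of those was used. Alternatives were other normalizations, pseudocounts of 1 and 64, no filter or one at the 60th percentile, 1 probe set per gene, the replicate block, the 4 arrays of a line alone, all 12 arrays, and each array left out.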

Additional observations from a re-analysis of the deposited data

Results flagged for a closer look

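AKR1C3 (209160_at) lay above its parental level in DU145-DR and below it in 22Rv1-DR on every pair, with changes of 4.05 ± 0.19 and -1.24 ± 0.19, and 0.31 and -0.11 on the third pair. Both AKR7A2 probe sets lay the other way round on every pair, 202139_at with -0.41 ± 0.20 in DU145-DR and 0.13 ± 0.20 in 22Rv1-DR, and 214259_s_at with -0.40 ± 0.25 and 0.18 ± 0.25. None of these differences between the lines was tested. Over all probe sets tested, 28.4% were higher and 28% lower on all 3 DU145 pairs, and 26.6% and 21.8% on all 3 22Rv1 pairs. The share lying opposite in the 2 lines was not counted. Groups of at most 3 arrays allowed no search for outlying arrays.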

How the results depend on the processing

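In DU145, 1331 probe sets of all genes passed; the count was 2019 with quantile normalization, 280 with the 4 arrays of the line alone, 554 with all 12 arrays, and 528 to 1753 with 1 array left out: 528 without DU145 replicate 1, 584 without DU145 replicate 2, and 849 and 850 without 22Rv1 replicate 1 or 2. In 22Rv1, 603 passed, 1319 with the 4 arrays of the line alone, 272 with all 12 arrays, and 245 to 981 with 1 array left out: 245 and 254 without 22Rv1 replicate 1 or 2, 262 and 267 without 22Rv1-DR replicate 1 or 2, and 981 and 968 without DU145-DR replicate 1 or 2. Other settings kept these counts within 1.5 times. Labels give the groups the same replicate numbers but do not say what a number shares. On the 8-array table deviations of parental and resistant arrays of 1 number correlated at 0.716 in DU145 and 0.792 in 22Rv1, with only 2 pairs. With the replicate block 4921 probe sets passed in DU145 and 2923 in 22Rv1; member calls became 6 higher and 4 lower (AKR7A2 and AKR7A3) in DU145, and 1 higher (AKR1C1) and 1 lower in 22Rv1. List counts grew with the block too: in DU145, 3 androgen and steroid genes rose in place of 0 (HSD17B10 limma adjusted p = 0.00575), 5 NRF2 regulators rose in place of 1, 8 prostaglandin genes fell in place of 3 and 7 AKR1C neighbours rose in place of 2, and in 22Rv1, 2 androgen and steroid genes fell in place of 0 (HSD17B6 limma adjusted p = 0.0232).

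The AKR1C1 x_at, AKR1C2 and AKR1C3 calls in DU145 held in each setting that tested them, with AKR1C3 at 2.80 to 4.20. AKR1B10 ranged from 0.23 to 1.70 there and also lost its call with the 4 arrays of the line alone and with all 12 arrays, where the AKR1C3 call in 22Rv1 was lost too. Of the genes named from lists, SLC7A11 lost its call with the 4 arrays of the line alone (limma adjusted p = 0.0640). ABCC4 in DU145 lost its call there and with all 12 arrays (limma adjusted p = 0.104 in each). CYP26A1 and DHRS3 lost theirs with all 12 arrays (limma adjusted p = 0.178 and 0.232). NASP in 22Rv1 lost its call in 4 of the 10 settings other than leaving an array out, all 12 arrays among them. The cause of these shifts was not tested. Near the array floor, intensity limits what AKR1C4 and, in 22Rv1, AKR1B10 can show.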
